A study of Mus musculus with 26 samples.

Results

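Collagen genes code for the triple-helical proteins of the extracellular matrix. The table of gene counts held 44 genes whose symbol has the form Col, number, a, number, out of 56941 genes listed, and all 44 were taken as members. By the family to which their proteins belong they were 11 fibrillar collagens, 8 collagens of the basement membrane, 9 FACITs (collagens with interrupted triple helices, which attach to the surface of fibrils) and 16 others, among them type VI. Counts were high enough for testing in 32 of the 44, namely 8 of 11 fibrillar, 8 of 8 basement membrane, 5 of 9 FACIT and 11 of 16 other collagens.

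Left ventricles of 26 mice were studied by RNA sequencing, 1 library per mouse, at 12 to 16 weeks of age with saline delivered by a minipump over the last 2 weeks. The knockout mice (cKO, genotype aMHC-CreTg/0-Ppp2r2aL/L; 7 males and 7 females) carried loxP-flanked Ppp2r2a and a Cre recombinase driven by the cardiomyocyte promoter aMHC. The control mice (Ctrl, genotype aMHC-Cre0/0-Ppp2r2aL/L; 6 males and 6 females) had the flanked alleles and no Cre, so every mouse in all 4 groups carried the flanked alleles and received saline. Ppp2r2a codes for B55α, a regulatory subunit of protein phosphatase 2A, and the title of the study asks about sex-specific regulation of the heart transcriptome by it. The strain is labelled C57BL/6N, while the series text gives a mixed background, with the flanked allele from C57BL6/N mice and the Cre transgene from FVB mice. Mice with Cre and without flanked alleles were not analysed here, so Cre, FVB sequence carried with it and the loss of Ppp2r2a cannot be told apart.

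In the heart, collagen types I and III form the fibrils between muscle bundles, and type V is built into these fibrils and limits their width. Type IV forms the network of the basement membrane that wraps each cardiomyocyte and capillary, and type VI forms beaded filaments that link this membrane to the fibrils. Fibroblasts make most of the fibrillar collagen and vascular and mural cells much of the type IV collagen, so the cells in which Cre acts are not those known as the main collagen producers. Each collagen molecule has 3 chains, which can come from different genes, and chains of 1 type are therefore often made together.

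Total counts were 14.4 to 30.9 in units of 1000000 per library, and mitochondrially encoded genes took 13.8% to 19.2% of them. Ppp2r2a fell in cKO males by 1.40 on the log2 scale (SE 0.14, edgeR adjusted p = 1.86e-06) and in cKO females by 1.58 (SE 0.14, edgeR adjusted p = 1.9e-07), with no overlap between genotypes in either sex. Control males 3 and 6 had the lowest Ppp2r2a of their group, at 24.9 and 24.1 CPM (counts scaled to 1000000 per library). The cKO female 1 stood apart in the collagens: its summed collagen level of 2832 CPM was the highest of all 26 mice, and its mitochondrial share of 13.8% the lowest. Counts of collagens are given with and without these mice where they change, as are the female values of Col1a1, Col1a2, Col3a1, Col4a1, Col4a2, Col6a1 and Col6a2 (cKO female 1) and the male values of Col1a1, Col4a3, Col4a4 and Col14a1 (Ctrl males 3 and 6). The cKO female 1 was picked by its high collagen level, so its omission lowers the cKO side of these genes. Their values without Ctrl female 6, the highest control at 2625 CPM, are not given. Its omission moved the female median the other way, as described below. The tissue label was checked against fixed marker genes: the 5 cardiomyocyte markers summed to 36220 to 50920 CPM in every mouse, and the 3 atrial markers to 1.14 to 2.31 CPM.

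Type IV genes lie in head-to-head pairs, in which both genes are read away from a common promoter. The promoter windows of Col4a1 and Col4a2 are shown because these genes were the most abundant collagens and varied together. Those of Col1a2 and Col4a4 are shown as examples of genes that differed between cKO females and cKO males. Each window runs from 250 bases before to 50 bases after the start site, 5′ to 3′ on the gene's own strand, as given by RefSeq for GRCm38.p6 (counting from 1). Capitals mark matches on either strand to the GC box (GGGCGG) or the CCAAT box (CCAAT).
Col4a1, chr8:11312777-11313076, minus strand: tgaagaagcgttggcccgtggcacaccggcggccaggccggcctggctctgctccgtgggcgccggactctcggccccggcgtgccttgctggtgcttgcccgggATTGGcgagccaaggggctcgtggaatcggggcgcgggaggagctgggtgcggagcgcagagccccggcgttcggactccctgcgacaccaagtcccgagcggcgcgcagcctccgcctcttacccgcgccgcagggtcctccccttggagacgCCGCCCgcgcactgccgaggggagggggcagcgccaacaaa
Col4a2, chr8:11312555-11312854, plus strand: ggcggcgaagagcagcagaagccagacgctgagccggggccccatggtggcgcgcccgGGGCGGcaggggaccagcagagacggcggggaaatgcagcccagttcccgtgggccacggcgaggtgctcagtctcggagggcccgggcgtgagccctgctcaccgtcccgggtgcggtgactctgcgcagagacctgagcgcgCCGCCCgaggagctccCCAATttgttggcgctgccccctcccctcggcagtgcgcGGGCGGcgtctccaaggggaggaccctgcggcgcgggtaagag
Col1a2, chr6:4505368-4505667, plus strand: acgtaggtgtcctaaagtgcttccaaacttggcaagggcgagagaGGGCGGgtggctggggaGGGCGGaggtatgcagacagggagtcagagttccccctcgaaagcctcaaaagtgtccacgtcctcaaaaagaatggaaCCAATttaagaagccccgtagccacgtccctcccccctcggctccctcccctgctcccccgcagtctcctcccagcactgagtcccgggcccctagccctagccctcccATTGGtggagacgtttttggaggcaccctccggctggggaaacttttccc
Col4a4, chr1:82586800-82587099, minus strand: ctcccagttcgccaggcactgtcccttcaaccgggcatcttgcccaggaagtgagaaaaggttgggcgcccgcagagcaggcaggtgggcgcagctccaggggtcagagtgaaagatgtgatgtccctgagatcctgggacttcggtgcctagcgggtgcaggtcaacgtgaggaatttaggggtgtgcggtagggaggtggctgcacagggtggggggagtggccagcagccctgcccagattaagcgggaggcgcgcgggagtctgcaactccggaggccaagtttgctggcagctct

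The start sites of Col4a1 and Col4a2 lay 21 bases apart, and their windows shared 78 bases, chr8:11312777-11312854, on opposite strands. Both windows held a GC box and a CCAAT box, as did that of Col1a2, and that of Col4a4 held neither. The window of Col4a5, which also differed between cKO females and males and is not printed, held 1 GC box and 1 CCAAT box. Of the 26 tested collagens with a window, 18 held a GC box, 9 a CCAAT box and 3 a TATA box (TATAAA, Col3a1 among them), on either strand. Over all 32851 mouse windows of this length the shares were 35.7% for the GC box, 37.4% for the CCAAT box and 13.6% for the TATA box. These are matches of letters and no evidence of binding. The table used has no window for Col14a1, Col4a3 and Col1a1.

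**Figure D1:**
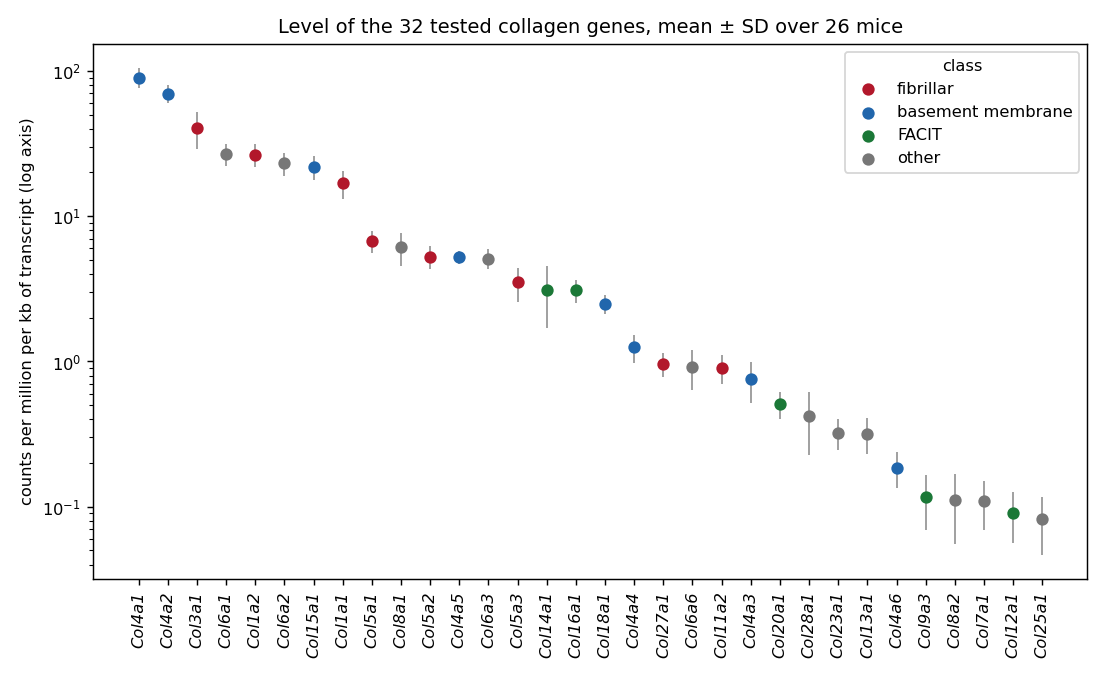
Level of each of the 32 tested collagens in CPM per kb of transcript (log axis), as the mean over 26 mice with the SD as a line; colours give the class. Col4a1 at 90.1 and Col4a2 at 69.8 stand above all others, and 8 genes are above 10.

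Levels of different genes were compared per length, as CPM divided by the length of the longest annotated transcript in kb. Basement membrane collagens made up 52.8% of the summed collagen level on this scale, fibrillar collagens 27.8%, the other collagens 17.5% and FACITs 1.91%. The chains of the common type IV network, Col4a1 at 90.1 ± 14.2 CPM per kb (mean ± SD, n = 26) and Col4a2 at 69.8 ± 9.79, ranked highest, and their order was unaltered with the coding length in place of the transcript length. Next came Col3a1, the single chain of type III, at 40.4 ± 11.4 CPM per kb. Col6a1 (26.7), Col1a2 (26.5), Col6a2 (23.1) and Col15a1 (21.8 CPM per kb) followed, and the gaps between these 4 genes were below 1 SD. Col1a1, at 16.8 CPM per kb, closed this upper group of 8 genes, since the gap to Col5a1 at 6.79 was 3.63 times the SD between mice.

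From Col5a1 down to Col18a1 (2.49 CPM per kb) lay 9 genes of all classes, including the minor fibrillar chains Col5a2 and Col5a3, the type VI chain Col6a3, the type IV chain Col4a5 and the FACITs Col14a1 and Col16a1. The remaining 15 tested genes were at 1.25 (Col4a4) to 0.082 (Col25a1) CPM per kb. Of the 12 collagens below the filter, Col10a1, a product of growth-plate cartilage cells, had no count in any mouse. The cartilage collagen Col2a1 had at most 4 counts in a mouse, Col11a1 at most 4 and Col9a1 at most 1. The largest count among the 12 was 18, for Col6a5, and the rest (Col24a1, Col9a2, Col22a1, Col19a1, Col26a1, Col17a1 and Col6a4) reached 2 to 14 counts.

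In males, 1 collagen was higher in cKO than in Ctrl at the threshold of an adjusted p under 0.05, which 0.443% of all 15357 genes tested passed (68 genes, and 4 to 122 on leaving out each mouse in turn). That gene was Col14a1, a FACIT that binds to type I fibrils and regulates their assembly. At an unadjusted p under 0.05, 13 collagens were higher and 1 was lower in cKO males, where 13.2% of all genes passed this mark in either direction and 6.11% as higher. The 13 became 6 to 15 on leaving out each mouse, with 6 without Ctrl male 1 or 2 and 8 without cKO male 6. The share of all genes at this unadjusted mark on each omission is not given here or below. The log2 fold change was above 0 in 27 of the 32 collagens, with a median of 0.24 against 0.00 over all genes, and of 0.25 without Ctrl males 3 and 6. The summed collagen level was 1740.3, 2029 and 2431 CPM in Ctrl males (lowest, median and highest of 6) and 2163, 2497 and 2684 CPM in cKO males (of 7), which overlapped. In bulk tissue, more cells of a type and more RNA per cell cannot be told apart.

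Col14a1 was at 7.78, 8.96 and 10.8 CPM in Ctrl males (lowest, median and highest, as in all such triplets that follow) and 10.8, 14.4 and 19.5 CPM in cKO males. The highest control lay just below the lowest knockout. Overlap of groups is described here and below gene by gene. It was not counted over all genes, so how common its absence is among them is not known. In females Col14a1 was higher in both genotypes, at 14.2, 26.8 and 33.6 CPM in Ctrl and 23.0, 28.5 and 38.2 CPM in cKO, and these groups overlapped. On the log2 scale cKO males exceeded Ctrl males by 0.74 (SE 0.16, edgeR adjusted p = 0.0384), a 1.67-fold level, and cKO females exceeded Ctrl females by 0.17 (SE 0.15, edgeR adjusted p = 0.975). The male call ended on leaving out any 1 of 11 mice: Ctrl males 1 to 5, cKO males 1, 2, 5, 6 and 7, and cKO female 6 (all groups share the estimate of spread). It was also lost when transcript length and GC content were corrected for (0.68, edgeR adjusted p = 0.0848) and without Ctrl males 3 and 6 (0.77, edgeR adjusted p = 0.0746).

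**Figure D2:**
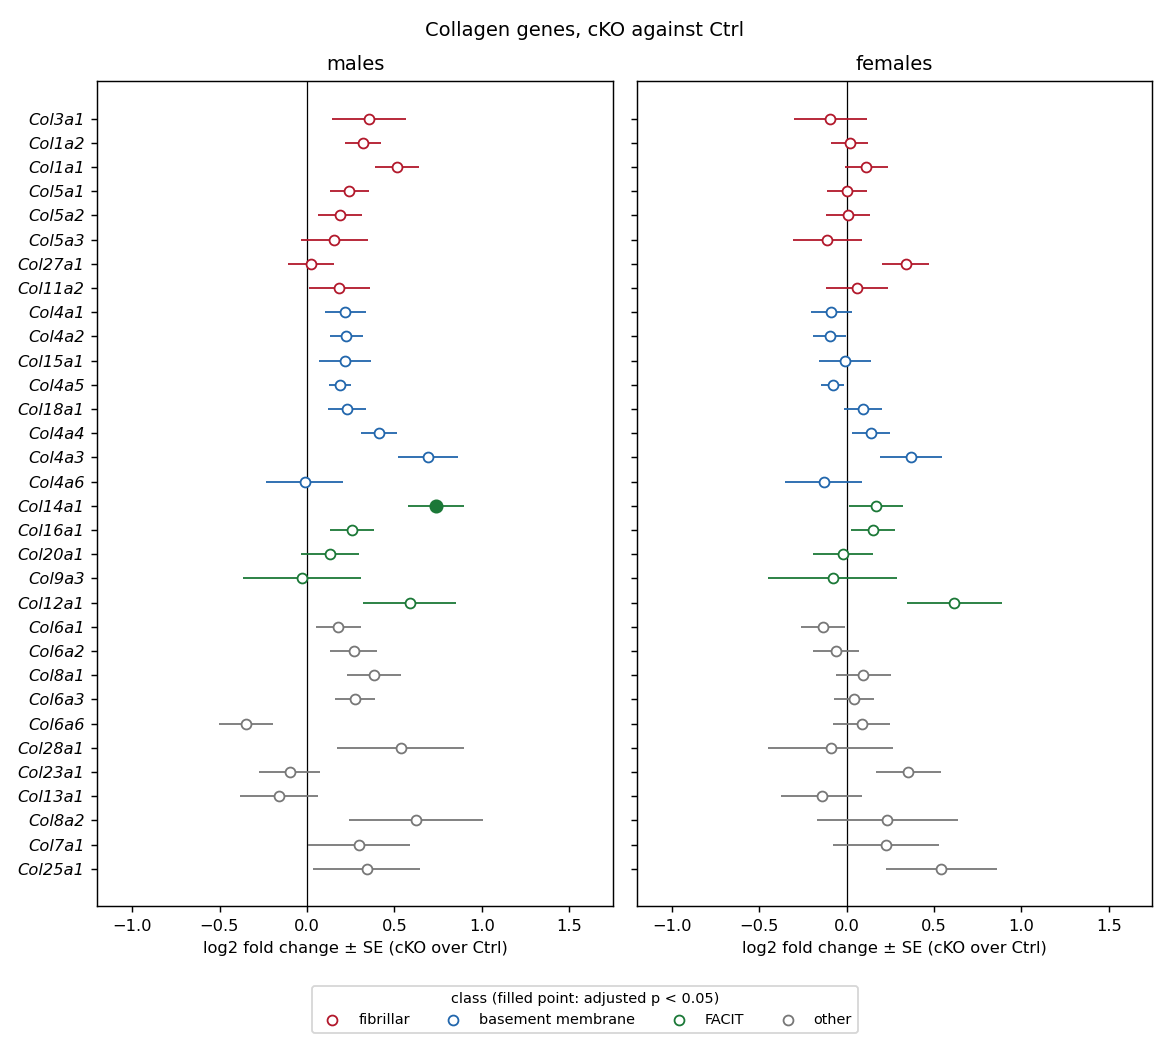
Log2 fold change of cKO over Ctrl with its SE for the 32 tested collagens, in males (left) and females (right), ordered by class and then by level. Of the male points 27 lie above 0, and the single filled point, an adjusted p under 0.05, is Col14a1 at 0.74; the female points scatter around 0, with 19 above it.

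All 8 fibrillar collagens had a positive log2 fold change in males, with a median of 0.21, and none passed the adjusted threshold. Col1a1, the chain present in 2 copies in type I collagen, was at 72.7, 85.8 and 104 CPM in Ctrl males and 106, 126 and 142 CPM in cKO males, with no overlap. The male difference was 0.52 (SE 0.12, edgeR adjusted p = 0.0553) on the log2 scale. Female values were 66.0, 85.8 and 116 CPM in Ctrl and 81.2, 89.3 and 136 CPM in cKO, where cKO female 1 was the highest mouse and the groups overlapped widely (log2 fold change 0.11, SE 0.12, edgeR adjusted p = 0.982). Without that mouse the female difference was 0.01. Of 9 alternatives, Col1a1 was past the threshold in males with limma voom (adjusted p = 0.0306), with DESeq2 (adjusted p = 0.00383) and with only the male groups in the edgeR fit (adjusted p = 0.0223). In the other 6 it was not, with adjusted p up to 0.185, among them the omission of Ctrl males 3 and 6 (0.54, edgeR adjusted p = 0.101).

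Col1a2, the partner chain of Col1a1, was at 116, 131 and 164 CPM in Ctrl males and 137, 178 and 192 CPM in cKO males. Of the 7 cKO males, 5 lay above every control, and the groups overlapped (log2 fold change 0.32, SE 0.10, edgeR adjusted p = 0.142). In females the values were 105, 127 and 159 CPM in Ctrl and 110.3, 129.6 and 157 CPM in cKO, nearly the same range (log2 fold change 0.02, SE 0.10, edgeR adjusted p = 1, and -0.04 without cKO female 1). Col3a1 varied most between mice of 1 group among these chains, at 155, 205 and 289 CPM in Ctrl males and 219, 285 and 317 CPM in cKO males. The male difference was 0.35 (SE 0.21, edgeR adjusted p = 0.492) on the log2 scale. In females Col3a1 was at 124, 197 and 295 CPM in Ctrl and 156, 173 and 338 CPM in cKO, again with cKO female 1 highest (log2 fold change -0.09, SE 0.21, edgeR adjusted p = 0.994), and without that mouse the difference was -0.28.

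Type V chains, which nucleate the fibrils, followed with smaller differences. Col5a1 had group means of 56.3, 66.5, 52.3 and 52.3 CPM (male Ctrl, male cKO, female Ctrl, female cKO), and male and female log2 fold changes of 0.24 and 0.00. Col5a2 had means of 34.7, 39.5, 32.5 and 32.6 CPM in the same order, with log2 fold changes of 0.19 and 0.01. For Col5a3 the means were 22.2, 24.7, 20.1 and 18.6 CPM and the log2 fold changes 0.16 and -0.11. The type XI chain Col11a2 was at 5.28, 6.00, 5.19 and 5.38 CPM, with log2 fold changes of 0.19 and 0.06. Col27a1 was at 6.97, 7.06, 6.70 and 8.44 CPM, with a log2 fold change of 0.02 in males and 0.34 in females (unadjusted p = 0.0177, edgeR adjusted p = 0.932). The female minus the male value was 0.32 (SE 0.19, edgeR adjusted p = 0.999), so a difference between the sexes is not shown.

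Of the basement membrane collagens, 7 of 8 had a positive log2 fold change in males, with a median of 0.22, and none passed the adjusted threshold. The closest were Col4a3 and Col4a4, which with Col4a5 form the specialised type IV network best known from the kidney glomerulus. Col4a3 was at 4.42, 5.18 and 6.92 CPM in Ctrl males and 6.98, 8.37 and 10.7 CPM in cKO males, with the lowest cKO male just above the highest control (log2 fold change 0.69, SE 0.17, edgeR adjusted p = 0.059). Females had 3.0, 4.80 and 7.62 CPM in Ctrl and 4.13, 6.68 and 8.04 CPM in cKO, and the groups overlapped (log2 fold change 0.37, SE 0.18, edgeR adjusted p = 0.948). Col4a3 is uncertain, because its exons overlap by 563 bases with C430014B12Rik on the other strand, and whether strand was used in counting is not given in the sources used here. That gene had 2 to 15 counts in every mouse. Shorter overlaps with genes on the other strand were 234 bases for Col9a3 (with Tcfl5), 99 and 113 for Col5a1, 63 for Col6a6, 43 for Col4a2 (with Gm15419), 22 between Col4a1 and Col4a2 and 14 for Col15a1, to which the same uncertainty applies. On their own strand Col3a1, Col20a1 and Col7a1 overlapped by 141, 79 and 36 bases with other annotated genes.

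Col4a4 was at 9.09, 13.1 and 13.8 CPM in Ctrl males and 13.8, 15.8 and 20.1 CPM in cKO males, where 6 of 7 knockouts lay above every control (log2 fold change 0.41, SE 0.10, edgeR adjusted p = 0.0617). In females it was at 8.90, 10.1 and 13.2 CPM in Ctrl and 9.34, 11.9 and 12.6 CPM in cKO (log2 fold change 0.14, SE 0.11, edgeR adjusted p = 0.975). Col4a5, the X-linked chain of this network, was at 30.0, 33.3 and 36.5 CPM in Ctrl males and 34.5, 37.8 and 45.1 CPM in cKO males (log2 fold change 0.19, SE 0.06, edgeR adjusted p = 0.157). Its female values were 32.1, 33.1 and 34.9 CPM in Ctrl and 27.4, 31.3 and 36.0 CPM in cKO (log2 fold change -0.08, SE 0.06, edgeR adjusted p = 0.975). The control females spanned a narrow range, and 4 cKO females lay below it. In males Col4a3 was past the threshold in 2 of the 8 alternatives that gave it an adjusted p (0.0316 to 0.167, with none from DESeq2), and Col4a4 in 2 of 9 (0.00827 to 0.379). Without Ctrl males 3 and 6 they stood at 0.87 (edgeR adjusted p = 0.0545) and 0.49 (edgeR adjusted p = 0.0681). The X-linked neighbour of Col4a5, Col4a6, was at 1.12, 1.11, 1.42 and 1.29 CPM (male Ctrl, male cKO, female Ctrl, female cKO), with log2 fold changes of -0.01 and -0.13.

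The abundant pair, whose promoters are printed above, had smaller log2 fold changes. Col4a1 was at 454, 585 and 660.1 CPM in Ctrl males and 559, 648 and 756 CPM in cKO males (log2 fold change 0.22, SE 0.12, edgeR adjusted p = 0.425). Col4a2 was at 369, 438 and 500.0 CPM in Ctrl males and 441, 500.5 and 562 CPM in cKO males (log2 fold change 0.23, SE 0.09, edgeR adjusted p = 0.287). Both overlapped between genotypes. In females Col4a1 was at 514, 566 and 705 CPM in Ctrl and 463, 522 and 761 CPM in cKO, and Col4a2 at 393, 433 and 539 CPM and 365, 387 and 554 CPM. Their female log2 fold changes were -0.09 and -0.10, and both were -0.18 without cKO female 1. Col15a1 and Col18a1, whose proteins sit at the edge of basement membranes and release antiangiogenic fragments, had means of 108, 126, 108 and 108 CPM and 13.1, 15.4, 13.1 and 13.9 CPM over the groups in the order above. Their male log2 fold changes were 0.22 and 0.23, and their female ones -0.01 and 0.10.

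**Figure D3:**
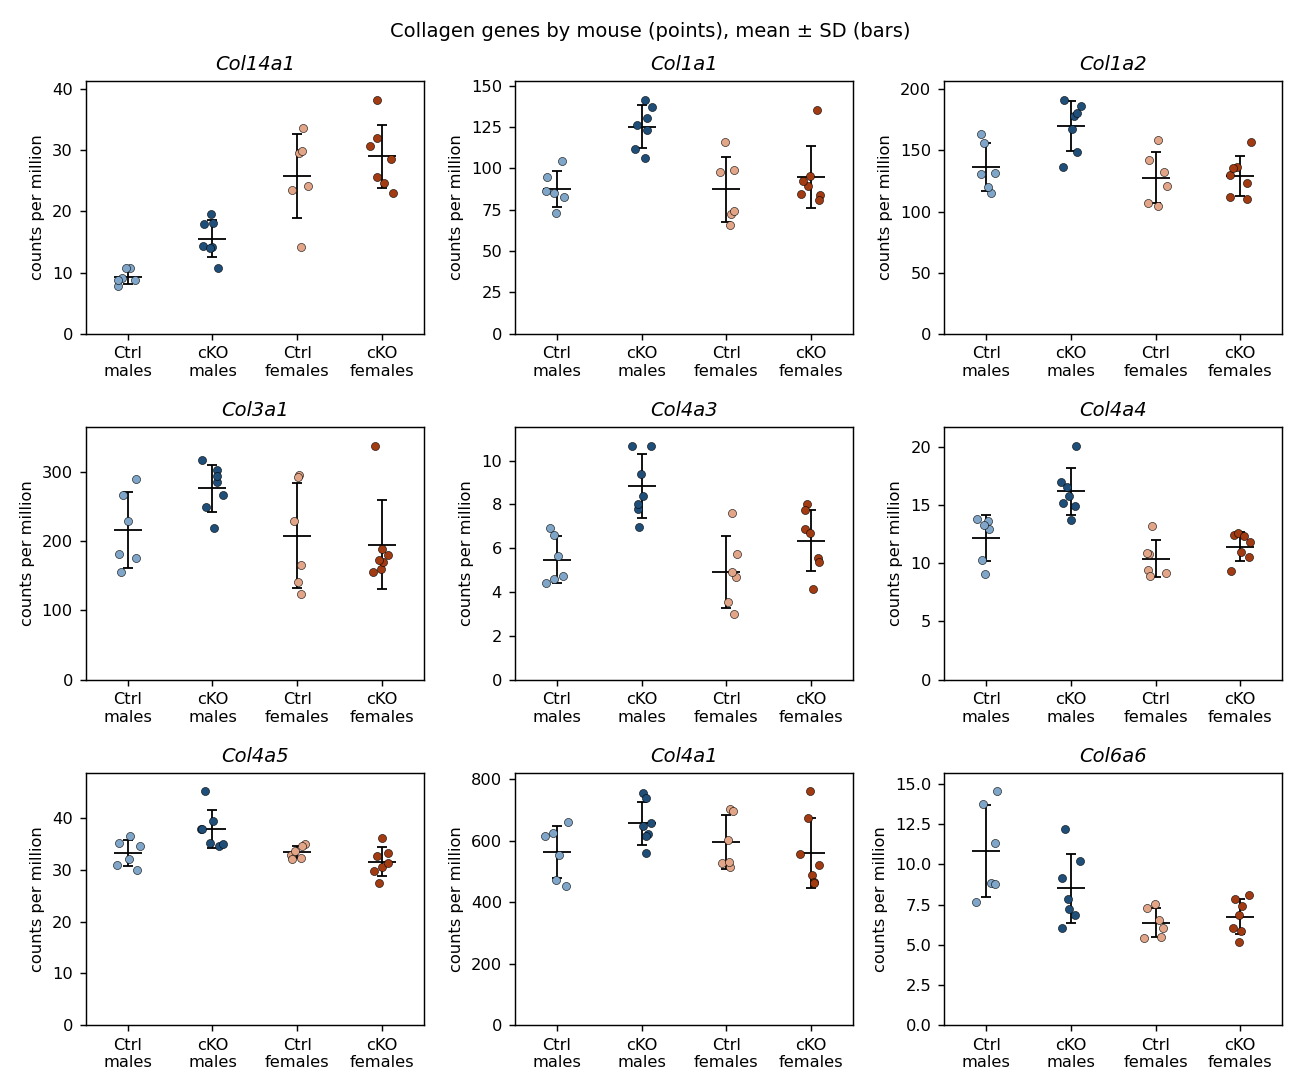
CPM (linear axes from 0) of 9 collagens in each of 26 mice, with mean and SD per group. Col14a1, Col1a1 and Col4a3 do not overlap between Ctrl and cKO males, and cKO female 1 is the high point of its group for Col1a1, at 136, and Col3a1, at 338. Overlap was not counted over all genes.

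Of the 5 FACITs tested, 4 had a positive log2 fold change in males. Col16a1, which is found at the edge of fibrils and near basement membranes, was at 11.6, 14.7 and 19.1 CPM in Ctrl males and 13.8, 18.6 and 21.9 CPM in cKO males (log2 fold change 0.26, SE 0.12, edgeR adjusted p = 0.372). Its female values were 11.1, 15.0 and 17.7 CPM in Ctrl and 13.7, 15.5 and 22.3 CPM in cKO (log2 fold change 0.15, SE 0.13, edgeR adjusted p = 0.975), and genotypes overlapped in both sexes. Col12a1, a close relative of Col14a1, was scarce at 0.795, 1.19, 0.85 and 1.30 CPM (male Ctrl, male cKO, female Ctrl, female cKO). Its log2 fold change was alike in size in males (0.59, SE 0.27) and females (0.62, SE 0.27), with edgeR adjusted p = 0.333 and 0.941. Col20a1 was at 2.47, 2.69, 2.51 and 2.47 CPM and Col9a3 at 0.365, 0.367, 0.363 and 0.336 CPM in the same order. Their log2 fold changes were 0.13 and -0.03 in males and -0.02 and -0.08 in females.

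Among the 11 other collagens, 8 had a positive log2 fold change in males and none passed the adjusted threshold. The type VI chains Col6a1 and Col6a2 were at 84.0, 97.4 and 124 CPM and 86.9, 96.8 and 124 CPM in Ctrl males. In cKO males they were at 105, 115 and 126 CPM and 113, 122 and 133 CPM. Both chains thus overlapped between genotypes, with log2 fold changes of 0.18 (SE 0.13) and 0.27 (SE 0.13). In females Col6a1 was at 91.7, 113 and 147 CPM in Ctrl and 84.9, 103 and 152 CPM in cKO. Col6a2 was at 88.1, 112 and 154 CPM and 87.6, 109 and 169.8 CPM, and cKO female 1 was the highest mouse for both chains. Their female log2 fold changes were -0.13 and -0.06, and -0.24 and -0.19 without that mouse. The third common chain, Col6a3, had means of 45.1, 54.6, 52.4 and 53.9 CPM (male Ctrl, male cKO, female Ctrl, female cKO) and log2 fold changes of 0.28 and 0.04.

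Col6a6, an alternative type VI chain, went the other way in males. It was at 7.69, 10.1 and 14.5 CPM in Ctrl males and 6.04, 7.87 and 12.2 CPM in cKO males, with overlap (log2 fold change -0.35, SE 0.16, edgeR adjusted p = 0.324). Its female values were 5.41, 6.29 and 7.51 CPM in Ctrl and 5.18, 6.83 and 8.08 CPM in cKO (log2 fold change 0.09, SE 0.16, edgeR adjusted p = 0.987). The short-chain network collagen Col8a1, known from vessel walls, was at 30.1, 39.3, 26.5 and 28.3 CPM over the groups in the order above, with log2 fold changes of 0.39 in males (edgeR adjusted p = 0.265) and 0.10 in females. The remaining 6 had group means between 0.378 CPM (Col8a2 in Ctrl males) and 2.09 CPM (Col23a1 in Ctrl males). Among them, male and female log2 fold changes were 0.62 and 0.23 for Col8a2 and 0.54 and -0.09 for Col28a1. They were 0.34 and 0.54 for the membrane-spanning Col25a1, -0.10 and 0.35 for Col23a1 and -0.16 and -0.14 for Col13a1. For Col7a1, the anchoring fibril collagen, they were 0.30 and 0.23.

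In females, no collagen passed the adjusted threshold, which 0.0326% of all genes passed. At an unadjusted p under 0.05, 3 collagens were higher and 0 lower in cKO females (Col27a1, Col4a3 and Col12a1), where 5.15% of all genes passed this mark. DESeq2 and voom also called 0. The log2 fold change was above 0 in 19 of 32, with a median of 0.03. The summed collagen level was 1785, 2023 and 2625 CPM in Ctrl females and 1768, 1908 and 2832 CPM in cKO females, and the latter's highest value was cKO female 1. Without that mouse the log2 fold change was above 0 in 13 and below 0 in 20 of the 33 collagens then tested, and the median of the 32 was -0.05. At the other end, without Ctrl female 6, it was above 0 in 25 of 34, with a median of 0.09, and without Ctrl female 5 in 15 of 34, with a median of -0.02. The 3 collagens at an unadjusted p under 0.05 became 1 without Ctrl female 3, Ctrl female 5 or cKO female 5. With the correction for length and GC content 1 of the 3 was left, where 5.51% of all genes passed this mark. The log2 fold change was then above 0 in 14 of 32, with a median of -0.02.

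The difference of the genotype effect between the sexes was tested directly, as the female minus the male log2 fold change. No gene in the data passed the adjusted threshold (0% of 15357), so no collagen is shown to respond differently in males and females. At an unadjusted p under 0.05, 0 collagens had a positive and 5 a negative difference, and 3.96% of all genes passed this mark in either direction. The 5 were Col4a5 (-0.27, interval -0.44 to -0.09), Col14a1 (-0.57, -1.0 to -0.13), Col4a2 (-0.32, -0.58 to -0.06), Col1a1 (-0.40, -0.74 to -0.06) and Col1a2 (-0.30, -0.59 to -0.02; 95% intervals), each with edgeR adjusted p = 0.999. The difference was negative in 26 of 32 collagens, with a median of -0.24 against 0.01 over all genes. Leaving out each mouse in turn, 2 to 9 collagens had a negative difference at an unadjusted p under 0.05 and the median was -0.29 to -0.17. The count was 9 without cKO female 1 and 8 without Ctrl male 4, and it was 2 without Ctrl female 6. It was 3 without any 1 of Ctrl male 1, cKO male 1, Ctrl females 1 and 2 and cKO females 2 and 4. DESeq2 and voom called 0 collagens here, with 5 and 8 at an unadjusted p under 0.05. The shares of all genes at that mark with these methods are not given, so these counts are not shown to be particular to the collagens.

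Averaged over the sexes, 2 collagens were higher in cKO, where 1.33% of all genes passed the adjusted threshold. They were Col4a3, at 0.53 (SE 0.12, edgeR adjusted p = 0.029), and Col14a1, at 0.45 (SE 0.11, edgeR adjusted p = 0.0391). At an unadjusted p under 0.05, 9 collagens were higher and none lower, with 14.1% of all genes past this mark and 6.43% as higher. The 9 became 5 to 12 on leaving out each mouse, with 5 without cKO male 2 or Ctrl female 5. The mean log2 fold change was above 0 in 28 of 32 collagens. The next in order were Col4a4 at 0.28 (SE 0.08, edgeR adjusted p = 0.0583) and Col1a1 at 0.31 (SE 0.09, edgeR adjusted p = 0.068). The Col4a3 call ended without any 1 of Ctrl males 1 and 5, Ctrl female 1 and cKO female 5, and the Col14a1 call without any 1 of 12 mice (Ctrl males 1, 2, 3 and 5, cKO males 2, 6 and 7, Ctrl females 1, 3 and 4, and cKO females 1 and 5). With the correction for length and GC content neither passed (edgeR adjusted p = 0.0577 and 0.0761), where 1.06% of all genes did. Then 5 collagens were higher at an unadjusted p under 0.05, which 13.5% of all genes passed in either direction, and 24 of 32 were above 0. Without Ctrl males 3 and 6 the collagens past the threshold were Col4a3 and Col4a4, and Col14a1 was not among them.

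Transcript length moved with the male contrast and, less closely, with others. The 32 collagens had a median transcript length of 6084 bases against 3192 over all genes, and across 15092 genes the male log2 fold change had a Spearman correlation of 0.25 with length and -0.03 with GC content (a description over genes, which are not independent). With both fitted per library, the collagen log2 fold change in males stayed above 0 in 26 of 32, with a median of 0.15 against -0.02 over all genes. Then 6 collagens were higher and 1 lower at an unadjusted p under 0.05, which 11.6% of all genes passed. No collagen passed the adjusted threshold, which 0.0977% of all genes passed. Col1a1 then stood at 0.43, Col4a3 at 0.61 and Col4a4 at 0.32. The correlation with length was 0.23 for the mean genotype effect, 0.10 in females and -0.16 for the difference between the sexes. Between females and males it was -0.04 in Ctrl and -0.17 in cKO. After correction, 1 collagen (Col6a6) had a positive and 4 a negative difference between the sexes at an unadjusted p under 0.05 (3.82% of all genes passed). Between cKO females and males 10 were lower and 1 higher (16% of all genes), with the same 4 called at the adjusted threshold, where 2.13% of all genes were.

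Collagens also differed between females and males. In Ctrl, 2 passed the adjusted threshold, which 0.638% of all genes passed. Col14a1 was higher in females by 1.47 on the log2 scale (SE 0.17, edgeR adjusted p = 4.08e-06), a 2.76-fold level, and all 6 females lay above all 6 males. Col6a6 was lower in females (log2 fold change -0.76, SE 0.16, edgeR adjusted p = 0.0225), and all 6 females lay below the males. The Col6a6 call ended without any 1 of Ctrl males 4 and 6 and Ctrl females 4 and 6, and without Ctrl males 3 and 6 together (-0.75, edgeR adjusted p = 0.0517). That of Col14a1 held on leaving out each mouse in turn. At an unadjusted p under 0.05, 1 collagen was higher and 2 were lower, with 12.1% of all genes past this mark, and the median was 0.00.

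In cKO, 4 collagens passed, where 2.7% of all genes did. Col14a1 was again higher in females (log2 fold change 0.90, SE 0.15, edgeR adjusted p = 0.00159), a 1.86-fold level, with no overlap between the sexes. Lower in females were Col4a4 (log2 fold change -0.50, SE 0.10, edgeR adjusted p = 0.009), with all 7 females below all 7 males, Col4a5 (log2 fold change -0.26, SE 0.06, edgeR adjusted p = 0.0219), with 6 of 7 females below every male, and Col1a2 (log2 fold change -0.40, SE 0.10, edgeR adjusted p = 0.0307), with 5 of 7 below. At an unadjusted p under 0.05, 12 collagens were lower and 1 was higher in cKO females, where 17.3% of all genes passed this mark and 8.15% as lower. Of the 12, 6 were fibrillar (Col1a2, Col1a1, Col5a1, Col3a1, Col5a2 and Col5a3) and 4 belonged to the basement membrane (Col4a4, Col4a5, Col4a2 and Col4a3). The last 2 were Col8a1 and Col6a6. This contrast and the male genotype contrast share the cKO males, so their collagen values are not independent.

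Leaving out cKO female 1, the highest female for Col1a1 and Col3a1, raised the count of collagens called between cKO females and males from 4 to 8 by adding Col1a1, Col3a1, Col5a1 and Col4a2. It moved the median over the 32 collagens from -0.16 to -0.27. Over all genes 414 were called in this contrast, and 163 to 548 on leaving out each mouse in turn. Whether the rise is particular to the collagens was not tested. The Col1a2 call ended without any 1 of 8 mice (cKO males 1, 2, 5, 6 and 7 and cKO females 2, 3 and 4), and that of Col4a5 without cKO male 1 or cKO female 4. The calls of Col14a1 and Col4a4 held on leaving out each mouse in turn.

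**Figure D4:**
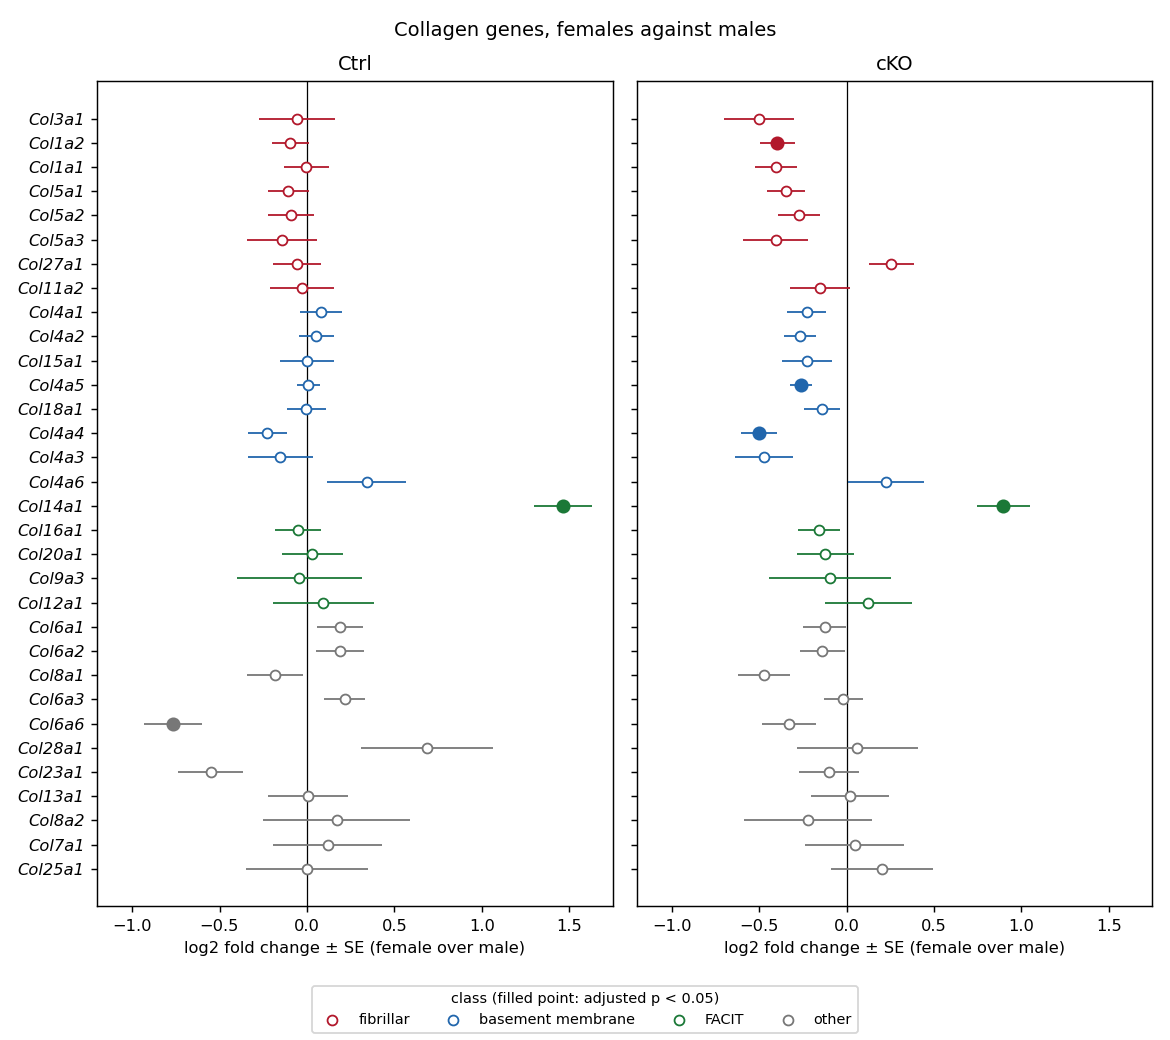
Log2 fold change of females over males with its SE for the 32 tested collagens, in Ctrl (left) and cKO (right), ordered by class and then by level; filled points have an adjusted p under 0.05. Col14a1 is the rightmost point in both panels, at 1.47 and 0.90, and in cKO 24 of the 32 points lie below 0.

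Chains of 1 collagen type varied together from mouse to mouse. The log2 levels of 8 pairs were compared over the 26 mice as deviations from each group's mean, with two-sided permutation tests within groups adjusted over the 8 pairs. For Col6a1 and Col6a2 Pearson's r was 0.98 (Spearman's rho 0.98), for Col4a1 and Col4a2 0.95 (rho 0.92), and for Col1a1 and Col1a2 0.88 (rho 0.88). Across types, r was 0.91 for Col1a1 with Col3a1 (rho 0.88) and 0.91 for Col1a2 with Col5a2 (rho 0.91). All 5 had permutation p = 1e-05, the smallest the permutations can give (adjusted 1.6e-05), for r and for rho. Without the pair of mice farthest from the median these r were 0.97, 0.93, 0.85, 0.85 and 0.91.

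The other 3 pairs, of which 2 join different classes, had lower values of r, a difference that was not tested. For Col1a1 with the basement membrane chain Col4a1 r was 0.67 (permutation p = 0.00069, adjusted 0.00092; rho 0.59, permutation p = 0.003, adjusted 0.0034). It was 0.82, -0.06, 0.92 and 0.70 within male Ctrl, male cKO, female Ctrl and female cKO, so it did not hold within the 7 cKO males; whether the groups differ in it was not tested. For Col1a1 with Col14a1 r was 0.65 (permutation p = 0.0011, adjusted 0.0012; rho 0.69, permutation p = 0.00046, adjusted 0.00061). For Col4a1 with Col18a1, both of the basement membrane, it was 0.58 (permutation p = 0.0042, adjusted 0.0042; rho 0.47, permutation p = 0.025, adjusted 0.025). Leaving out the farthest mice gave r of 0.52, 0.60 and 0.50 for these 3 pairs. All genes of a mouse share its library and its piece of tissue.

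**Figure D5:**
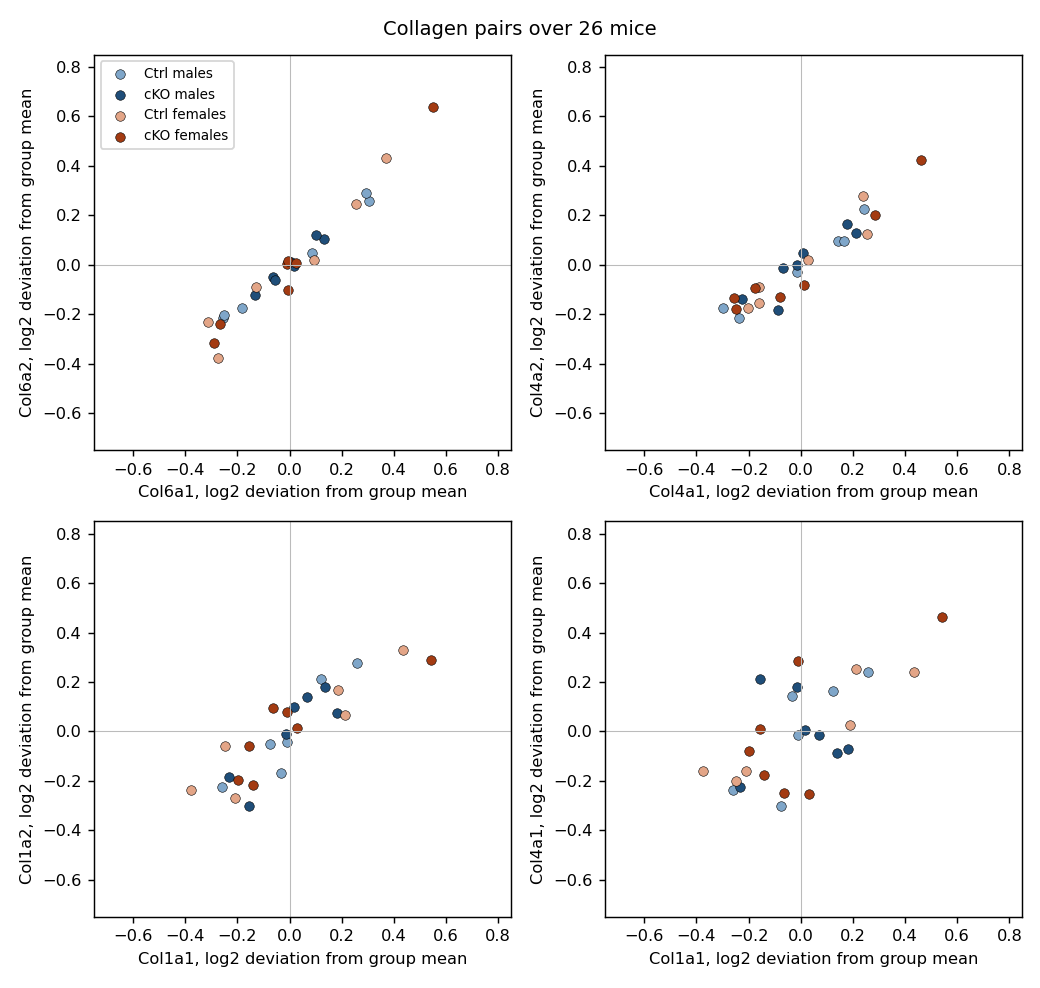
Log2 level of pairs of collagens in 26 mice, each as the deviation from its group's mean, coloured by group. Points for Col6a1 with Col6a2 (r 0.98), Col4a1 with Col4a2 (0.95) and Col1a1 with Col1a2 (0.88) follow a line, those for Col1a1 with Col4a1 (0.67) scatter, and cKO female 1 is the rightmost point in all 4 panels.

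The chains were also compared as ratios of their levels per length. Col4a1 stood to Col4a2 at 1.27 ± 0.0595 in Ctrl males (mean ± SD, n = 6), 1.27 ± 0.0621 in cKO males (n = 7), 1.30 ± 0.0639 in Ctrl females (n = 6) and 1.30 ± 0.0775 in cKO females (n = 7). Differences between these means were below 1 SD. Col1a1 stood to Col1a2 at 0.546, 0.573 and 0.638 in Ctrl males and 0.629, 0.646 and 0.737 in cKO males, where the highest control only just overlapped the lowest knockout. In females it was 0.537, 0.628 and 0.676 in Ctrl and 0.588, 0.654 and 0.779 in cKO, with wide overlap.

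Collagen also needs a set of enzymes and carriers, of which 41 were listed and 40 were tested. In males 34 of the 40 had a positive log2 fold change (median 0.12), against 50.3% of all genes (median 0.00). Of the 40, 10 were higher at an unadjusted p under 0.05 (6.11% of all genes were) and none passed the adjusted threshold. In females 19 of 40 were positive, against 51.1% of all genes, and none passed. Values of this list with the correction for length and GC content are not given. Averaged over the sexes 3 of the 40 passed, where 1.33% of all genes did, all higher in cKO: Pcolce2 (log2 fold change 0.32, SE 0.07, edgeR adjusted p = 0.0162), an enhancer of procollagen cleavage, Bmp1 (log2 fold change 0.16, SE 0.04, edgeR adjusted p = 0.0308), the protease that removes the C-terminal propeptide of fibrillar procollagen, and P4hb (log2 fold change 0.16, SE 0.04, edgeR adjusted p = 0.0461), a subunit of prolyl 4-hydroxylase. Pcolce2 was at 21.8, 25 and 28.9 CPM in Ctrl males and 25.8, 30.1 and 42.0 CPM in cKO males. In females it was at 22.6, 30.4 and 34.1 CPM in Ctrl and 33.2, 35.8 and 38.8 CPM in cKO, with overlap in both sexes.

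Between cKO females and cKO males, the cross-linking enzymes Loxl1 (log2 fold change -0.53, SE 0.12, edgeR adjusted p = 0.0219) and Lox (log2 fold change -0.74, SE 0.19, edgeR adjusted p = 0.0336) were lower in females, and the collagen chaperone Fkbp10 was higher (log2 fold change 0.61, SE 0.16, edgeR adjusted p = 0.0344). Loxl1 was at 46.1, 49.6 and 58.8 CPM in cKO males and 28.4, 30.5 and 43.7 CPM in cKO females, and no female reached the lowest male. These 3 of 40 stand beside 2.7% of all genes past the threshold. Of the 40 genes, 27 had a negative log2 fold change in this contrast, with a median of -0.08 against 0.01 over all genes. Between Ctrl females and males none of the 40 passed.

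Marker genes of the cells that make collagen were read beside these results. None of the 7 fibroblast markers passed in any of the 6 contrasts, and their median log2 fold change was 0.07 in males and 0.12 in females. Their sum was 1791 to 2447 CPM in Ctrl males, 2021 to 2376 in cKO males, 1975 to 2349 in Ctrl females and 2015 to 2809 in cKO females, with no marker at 0 in all mice. In males 2 genes of the fibroblast, endothelial, mural and cardiomyocyte lists had an unadjusted p under 0.05, where 13.2% of all genes did. They were the fibroblast marker Mfap5 at 0.49 (unadjusted p = 0.00683, edgeR adjusted p = 0.167) and the cardiomyocyte marker Tnnt2, cardiac troponin T, at -0.22 (unadjusted p = 0.00304, edgeR adjusted p = 0.12). In females the single such gene was the fibroblast marker Gsn at 0.17 (unadjusted p = 0.0301, edgeR adjusted p = 0.941), where 5.15% of all genes passed. Averaged over the sexes, all 7 fibroblast markers had a positive and all 5 cardiomyocyte markers a negative log2 fold change. At the same mark, which 14.1% of all genes passed, Mfap5 (0.32) and Gsn (0.14) were higher and Tnnt2 (-0.14) and Actn2 (-0.08) lower. In Ctrl, Lum (0.39) and Acta2 (0.55) were higher and Dcn (-0.26) lower in females, with 12.1% of all genes past it. Between cKO females and males 5 genes of these lists were higher in females at this mark, namely Lum (0.26), Gsn (0.17), Acta2 (0.39), Myh6 (0.14) and Tnnt2 (0.16), and none was lower. Of all genes 17.3% passed the mark in that contrast. The 5 endothelial markers summed to 723 to 1109 CPM over both cKO groups and 717 to 1085 over both Ctrl groups, with male and female medians of -0.13 and 0.05. For the 6 pericyte and smooth muscle markers the medians were -0.08 and 0.05, and for the 5 cardiomyocyte markers -0.10 and -0.06. No gene of the other marker lists (macrophage, lymphocyte, Schwann, epicardial, adipocyte, atrial and erythroid) passed in any contrast. The part of cell composition in the collagen values was not tested.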

How the data were processed

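The authors deposited whole-number read counts per gene for 26 left ventricle libraries in 1 matrix, without normalization. Per the submitters' processing notes, FastQC 0.74, cutadapt 4.6, STAR 2.7.11a, HTSeq and GRCm39 were used; the annotation's release and the strand setting of the counter are not given in the sources used here. Per the labels' protocols, libraries were stranded and made from poly-A selected RNA with an integrity number of at least 7.7.

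Groups came from the labels, and every column matched 1 sample. No within-group pair of libraries agreed within sampling noise (chi-square per degree of freedom 7.19 to 33.4 over 72 pairs). Counts were analysed with edgeR 4.0.16 in R 4.3.3: filterByExpr with a minimum count of 10, TMM scaling and 1 robust quasi-likelihood model with 4 group means over 26 mice. The Benjamini-Hochberg adjustment covered all 15357 genes that passed the filter, and calls were made at 0.05. Standard errors were taken as the log2 fold change over the root of F. The labels do not tie mice to litters, so p-values measure the spread between these mice. Alternatives were DESeq2 1.42.0, limma 3.58.1 voom with sample quality weights, DESeq2 size factors, no filter, only the compared groups, the replicate number as a block, splines in transcript length and GC content as an offset (4 degrees of freedom per library), and omission of mice. GENCODE M21, matched by gene ID, gave both properties for 98.3% of these genes. The fit was tested on simulated data with known changes in cKO males. It recovered 3 of 50 genes with a log2 change of 0.25 in size. For sizes of 0.5 and 1 it recovered 55 of 100 and 45 of 49. Of 109 calls, 6 were false.

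Members, gene lists and tests were chosen with earlier results of these data known. Full values are given for collagens called in any contrast and the 2 most abundant per length in each class; of the collagen biosynthesis list, genes called in any contrast are named. Full values of Col1a1 and the values of Mfap5 were added after they were seen. RefSeq windows were found for 35 of the 44 collagens. Protein sequences were not analysed here.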

Additional observations from a re-analysis of the deposited data

Results flagged for a closer look

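Within groups, 1 mouse lay far from the rest in 7 of the 128 sets of values examined (32 collagens in 4 groups). This is near the share of about 5% that chance gives, so single flags are described only. In 5 of these the mouse was cKO female 1, the highest of its group: Col3a1 at 337.7 CPM (the next cKO female at 188 CPM), Col1a1 at 136 CPM (next 95.2), Col6a2 at 169.8 CPM (next 110.4), Col6a1 at 152 CPM (next 106) and Col16a1 at 22.3 CPM (next 17.3). This mouse also had the lowest mitochondrial share of all, 13.8%. The 5 genes vary together between mice, so these are not 5 separate events. In Ctrl male 4 Col18a1 stood out at 17.3 CPM (next 13.3), and in Ctrl male 6 Col20a1 at 3.75 CPM (next 2.46).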

How the results depend on the processing

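The count of collagens called was 1 in males; it was 3 with only the compared groups and 4 with voom or DESeq2, and 0 without the filter on low counts, with the length and GC correction, without Ctrl males 3 and 6, with the replicate block and with the replicate block and that correction together. For the mean genotype effect it was 2, and 0 without the filter or with the correction, and 1 with the replicate block, alone or with the correction. Between females and males it was 2 in Ctrl, and 1 without Ctrl males 3 and 6, and 4 in cKO, and 7 with voom or DESeq2. Leaving out each mouse in turn gave 0 to 4 in males, 0 to 4 for the mean effect, 1 to 2 in Ctrl and 2 to 8 in cKO. It gave 0 to 0 in females and for the difference between the sexes. Over all genes these omissions gave 4 to 122 calls in males, 96 to 349 for the mean effect, 54 to 125 in Ctrl and 163 to 548 in cKO. With the length and GC correction, calls over all genes were 15 in males and 163 for the mean effect, against 68 and 205 without it. Totals over all genes under the other alternatives are not given here. Males and the mean effect reached 4 without Ctrl female 6, with Col1a1, Col4a3 and Col4a4 called beside Col14a1, and cKO reached 8 without cKO female 1 and fell to 2 without cKO male 1 or cKO female 4. The causes of these changes were not tested, apart from the fewer mice or more genes tested that an alternative itself brings. No named fold change of a collagen past an unadjusted p under 0.05 changed sign under any of these alternatives.

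Replicate numbers come from the sample titles and name different mice. Deviations of same-numbered mice correlated by -0.03 on average in males (6 pairs) and 0.12 in females (6 pairs, -0.10 to 0.40). Those of differently numbered mice correlated by 0.0043 and -0.02. So few pairs can neither show nor exclude a litter or batch shared by number, so what the block describes is unknown. The SE of the male log2 fold change was 0.06 (Col4a5) to 0.21 (Col3a1) among the collagens described in full, and collagen differences that were not called are not shown to be absent.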
